A study of Apis mellifera with 6 samples.

Results

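Drones and queens are the reproductive male and the reproductive female of the honey bee, *Apis mellifera*, and the comparison described here sets the central brain transcriptome of one against the other at the moment of adult emergence. It uses 4 of the 6 RNA-seq libraries of the series, chosen by their caste label, with 2 drone (D) pools and 2 queen (Q) pools. The 2 worker (W) libraries were not compared. They entered the filter on counts, the scaling of libraries and the estimate of the spread between pools. Each library was made from 5 dissected brains of bees that came from a single mother queen and were taken within 1 h of eclosure. Optic lobes had been cut away from every brain and the hypopharyngeal glands from those of workers. Drones are haploid males, whereas queens are diploid females reared from grafted larvae in queen cups, so that sex, ploidy and rearing differ together and cannot be told apart. The labels name no strain, allele or treatment for any group. The labels do not say how pools of a phenotype differ, and the p-values below measure the spread between these pools only.

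Sex in the honey bee is set by the gene *complementary sex determiner* (Csd), whose state is passed to *feminizer* (Fem) and then to *doublesex* (Dsx) through sex-specific splicing. Drones and queens then follow different lives, since a drone feeds in the hive and flies out to find a queen by sight and scent, while a queen mates within days and lays eggs for years. The brain at eclosure precedes these activities, and the cuticle of the young adult is still being completed around it.

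The total of the deposited estimated counts was 40453911 and 11287495 in drone pools 1 and 2, against 44373783 and 21203822 in queen pools 1 and 2. After transcripts were summed per gene, 9689 genes passed a minimum of 5 counts in at least 3 of the 6 libraries. Log2 CPM correlated across genes at 0.976 between the drone pools and at 0.991 between the queen pools, where genes are not independent replicates. The labelled tissue is brain, and its neural genes were read in every library, for instance the active zone gene brp at 639 and 554 CPM in drones and 1141 and 1087 CPM in queens. The first principal component held 71.4% of the variance of these 4 libraries over all genes tested.

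A property of the deposited counts bears on every result and is given first. Genes were divided by the sign that their exon coordinates carry. The 6073 minus-strand genes, 49.4% of all genes with a transcript, held only 3.63% and 2.94% of the gene counts in drones, against 4.25% and 4.51% in queens. The median plus-strand gene had 46.9 and 51.1 CPM in drones and 47.0 and 46.4 CPM in queens, whereas the median minus-strand gene had 1.68 and 1.14 CPM in drones and 1.26 and 1.61 CPM in queens. The worker libraries had the same imbalance, at 3.33% and 3.32% of counts. Genes that every cell uses followed it, since ATP5G2, a plus-strand gene of the mitochondrial ATP synthase, had 4253 and 4582 CPM in drones and 3323 and 3145 CPM in queens, while CytC, the minus-strand gene of cytochrome c, had 1.71 and 0.520 CPM in drones and 0.566 and 0.504 CPM in queens. Quantification had been set to use the strand of the reads, and the source of the imbalance was not tested. The account below therefore rests on plus-strand genes, and a minus-strand gene is named as such with its values and is not read as a level of expression.

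**Figure D1:**
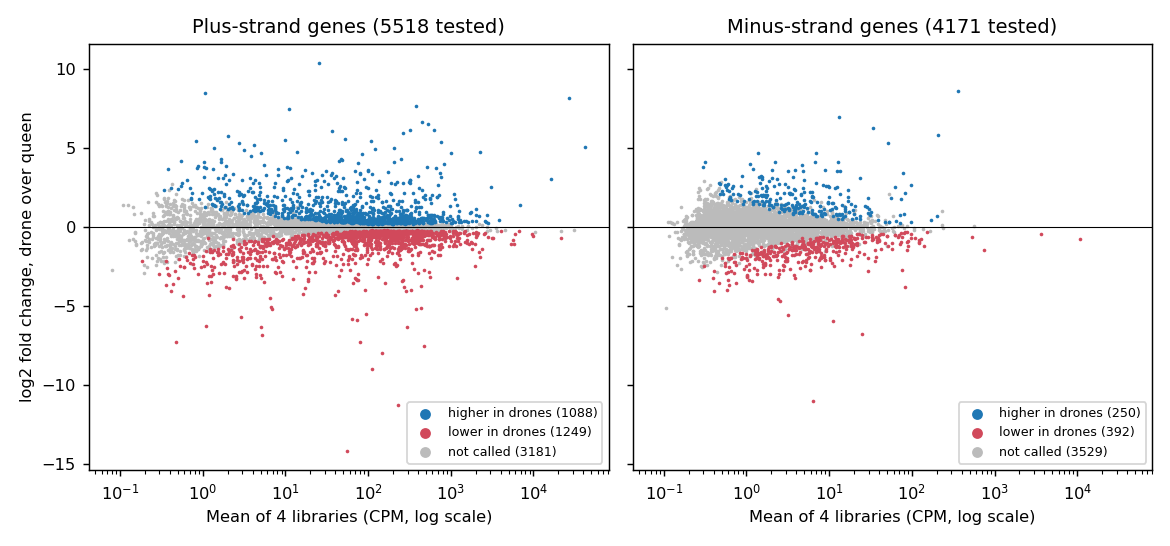
Log2 fold change of drone over queen (vertical axis) against the mean CPM of the 4 libraries (horizontal axis, log scale), 1 point per gene, for 5518 plus-strand and 4171 minus-strand genes tested. Blue points were called higher and red points lower in drones at an FDR below 0.05, and most minus-strand genes lie near 1 CPM with few calls.

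Of the 9689 genes tested, 2979 (30.7%) differed between drones and queens at a false discovery rate (FDR) below 0.05, with 1338 (13.8%) higher and 1641 (16.9%) lower in drones. Among the 5518 plus-strand genes, 1088 (19.7%) were higher and 1249 (22.6%) lower in drones, which are the shares to set beside the gene groups below, and the median log2 fold change was 0.00. These shares differed with level. In the highest of 4 equal groups by mean CPM 25.6% were higher and 38.7% lower, the nearer shares for groups of abundant genes. In the lowest they were 12.5% and 15.7%. Among the 4171 minus-strand genes, 250 were higher and 392 lower. The change was over 2-fold for 420 plus-strand genes higher and for 478 lower in drones, and over 8-fold for 86 higher and 67 lower. Every called gene had drone pools that did not overlap the queen pools, but so had 62.9% of all genes tested. The balance of directions differed between settings: of all calls, 44.9% were higher in drones here, 32.6% when libraries were scaled by their totals and 16.0% in the limma fit on log2(TPM + 1), where the median of all genes moved to -0.12 and -0.28. It was 50.5% in a fit of drones and queens only and 52.7% without queen pool 1, where the calls numbered 1979 and 936 were lower in drones, and without queen pool 2 those higher in drones numbered 839.

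Cuticle genes and an unnamed gene held the 3 largest differences in CPM. CPF2, a cuticular protein gene of the CPF family on chromosome 15 (Amel_HAv3.1, 7840678 to 7842089), had 80577 and 82711 CPM in drones, against 2433 and 2373 CPM in queens. The log2 fold change was 5.09 ± 0.12 (SE, n = 2 pools each, FDR 1.12e-09), a 34.0-fold difference. CPR5, a cuticular protein with the chitin-binding Rebers and Riddiford domain, had 28024 and 29384 CPM in drones, against 3683 and 3376 CPM in queens. LOC725838 on chromosome 8 (10435547 to 10451042), for which the gene table gives no function, had 54574 and 53200 CPM in drones, against 190 and 190 CPM in queens, 284-fold higher (FDR 1.60e-10). These 3 genes together took 15.6% and 15.5% of the counts of the genes tested in drones, against 0.637% and 0.621% in queens. On the TPM scale, which divides by transcript length, they took 24.5% and 25.4% in drones and 1.19% and 1.19% in queens.

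Other cuticle genes were mixed. Of 15 plus-strand members tested, CPF2 and CPR5 included, 8 rose in drones, 2 fell and 5 were not called, and their median log2 fold change was 1.79. With the 10 most abundant genes left out, which removed CPF2 and CPR5, 6 of the remaining 13 rose and 2 fell, and the median was 0.78. The apidermin genes Apd-1 and Apd-3, of a cuticle protein family known from bees and wasps, were 5.74-fold and 3.45-fold higher in drones. Cpap3-b, Cpap3-c and Cpap3-d, which encode proteins with chitin-binding domains, were 6.75-fold, 7.31-fold and 6.31-fold higher. CPR27 had 1213 and 1289 CPM in drones, against 17.8 and 16.7 CPM in queens, and was 72.1-fold higher. The exceptions were CPR22, which had 11.5 and 13 CPM in drones and 59.9 and 52.7 CPM in queens, and CPR28, which was 2.68-fold lower in drones. All 8 that rose kept their call in every alternative that tested them. Cuticle genes are known from epidermal cells, and in bulk libraries fewer cells of a type and less RNA per cell cannot be told apart.

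Opsins, the light receptors of photoreceptor cells, were higher in drones. Blop, the blue-sensitive opsin on chromosome 14 (10150063 to 10152653), had 1009 and 1105 CPM in drones, against 11.5 and 11.7 CPM in queens. The 2 pools of a phenotype lay close together, and the difference was 91.2-fold (log2 fold change 6.51 ± 0.09, SE, FDR 6.43e-11). Lop1, the long-wavelength opsin of the compound eye, had 1328 and 1489 CPM in drones and 550 and 571 CPM in queens, 2.51-fold higher. Per length, Lop1 and Blop stood at 1116 and 877 TPM in drones, but at 585 and 12.6 TPM in queens, so that the queen pools had Lop1 with very little Blop. The other opsin genes, Uvop and Lop2, lie on the minus strand, had less than 2 CPM in every library and were not called. The presence of opsin transcripts in central brains from which optic lobes had been removed was not traced further, and its part in other differences was not tested.

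Muscle troponins went the other way. All 4 plus-strand genes tested fell in drones, with a median log2 fold change of -3.38. The 2 minus-strand members were also called lower but are not read as levels of expression. TpnT, which ties the troponin complex to tropomyosin, had 43.3 and 34.2 CPM in drones, against 676 and 578 CPM in queens, 15.9-fold lower in drones (FDR 5.96e-08). The calcium-binding TpnCIIa had 13.4 and 12.4 CPM in drones and 132 and 133 CPM in queens, and TpnCIIb was 10.7-fold lower in drones. TpnCI was 4.46-fold lower. The troponin, opsin and cuticle groups thus separated the phenotypes in different directions. Arginine kinase (Argk), which buffers ATP in muscle and nervous tissue, differed from the troponins, with 9406 and 10215 CPM in drones and 3771 and 3757 CPM in queens, 2.61-fold higher in drones.

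**Figure D2:**
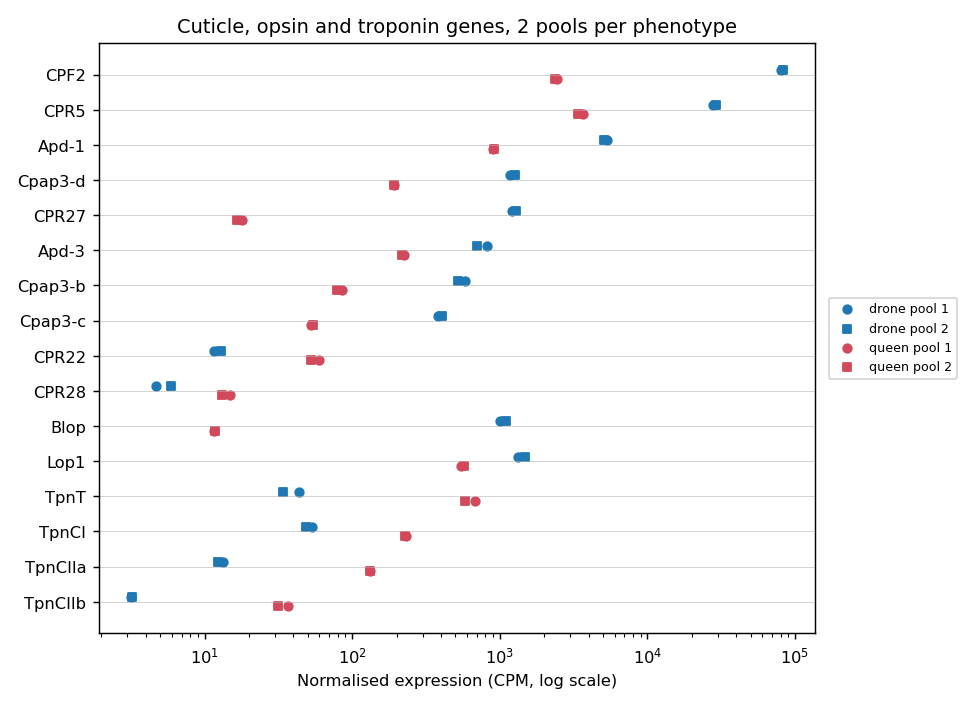
Normalised expression (CPM, horizontal log axis) of cuticle, opsin and troponin genes of the plus strand, with drone pools in blue above queen pools in red, circles for pool 1 and squares for pool 2. Of the cuticle genes drawn, all but CPR22 and CPR28 lie to the right in drones, as do both opsins. All 4 troponins lie to the right in queens. The 5 plus-strand cuticle genes that were not called are not drawn.

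Several odorant-binding proteins, small carriers of hydrophobic molecules, differed between the phenotypes. A cluster of 8 tested genes covers 44.0 kb of chromosome 15 (1917639 to 1961654), all on the plus strand. Obp14 had 751 and 771 CPM in drones, against 3.79 and 3.68 CPM in queens, 203-fold higher (log2 fold change 7.66 ± 0.14, SE, FDR 1.60e-10). Obp18 had 638 and 622 CPM in drones and 8.81 and 9.27 CPM in queens, 70.0-fold higher. Obp13, Obp16 and Obp17 were 11.0-fold, 27.5-fold and 48.2-fold higher. Obp21, at the far end, was 2.23-fold higher from 2.05 and 2.39 CPM in drones, against 0.763 and 1.26 CPM in queens. Obp15 and Obp19, which lie between these genes, had less than 0.5 CPM in every library and were not called. The members resemble each other in sequence family, and how the authors' software divided reads between them was not examined.

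**Figure D3:**
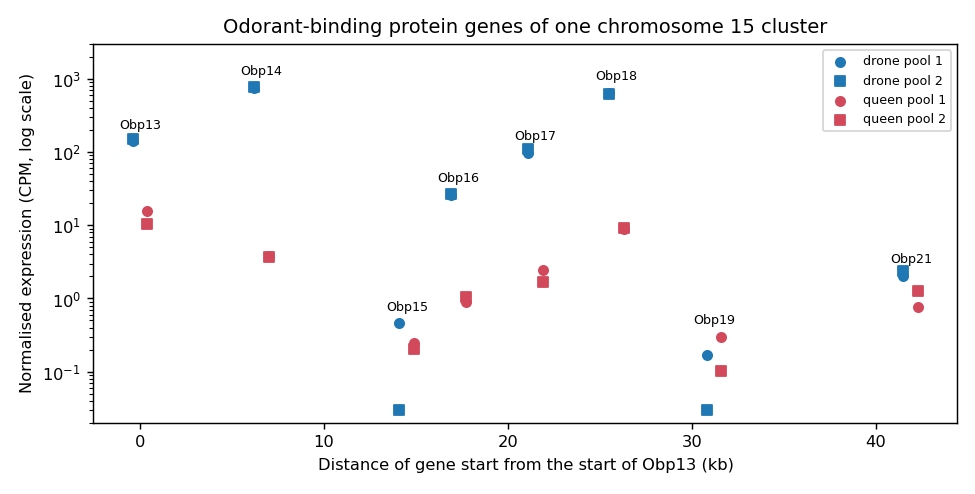
Normalised expression (CPM, vertical log axis) of the 8 odorant-binding protein genes tested in the chromosome 15 cluster, by distance of each gene's start from that of Obp13 (kb), with drone pools in blue left of queen pools in red. Values of 0 are drawn at 0.03 CPM. The fitted differences of Obp13, Obp14, Obp16, Obp17 and Obp18 were at least 11.0-fold, and single pools can lie closer than that.

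Outside that cluster the carriers did not share a direction. Obp3 on chromosome 9 had 68.1 and 68.4 CPM in drones and 400 and 345 CPM in queens, 5.46-fold lower in drones, whereas Obp4 on the same chromosome had 16.8 and 16.2 CPM in drones and 9.50 and 9.77 CPM in queens, 1.72-fold higher in drones (FDR 0.00655). The chemosensory protein CSP1 was 19.6-fold lower in drones, at 3.44 and 4.68 CPM against 79.0 and 70.9 CPM in queens, and the abundant CSP3 was 1.35-fold lower. Over the 17 plus-strand odorant-binding and chemosensory genes tested, 7 rose, 5 fell and 5 were not called. Their median log2 fold change was 0.41, and it was -0.10 on log2(TPM + 1), where that of all plus-strand genes was -0.35. It was -0.42 without drone pool 1 and 0.81 without drone pool 2, and without queen pool 1 the genes that fell numbered 2. Odorant receptor genes were read at low levels. Of 19 plus-strand genes with such a symbol 2 rose in drones and 0 fell, and the highest mean over the 4 libraries was 7.19 CPM.

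Genes of neural signalling were mostly lower in drones. In the amine group all 4 plus-strand genes tested fell, with a median log2 fold change of -1.52. The serotonin receptor gene 5-HT1 had 124 and 126 CPM in drones, against 340 and 326 CPM in queens (log2 fold change -1.42 ± 0.08, SE, FDR 5.70e-07). Both D1-like dopamine receptor genes were lower, since Dop1 had 64.3 and 66.4 CPM in drones and 210 and 190 CPM in queens, and DopR2 had 40.1 and 43.3 CPM in drones and 139 and 141 CPM in queens. These are 3.07-fold and 3.37-fold differences, and the pools of a phenotype differed far less. TyHyd, tyrosine hydroxylase, which starts dopamine synthesis, was 1.56-fold lower in drones. The 7 minus-strand genes of the group were read at below 4 CPM in every library and are not read as levels of expression. Of these, 4 were called. Dat was called higher in drones, at 2.76 and 2.91 CPM against 0.714 and 0.655 CPM in queens, and 5-HT2alpha, Tbh and Dop3 were called lower.

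Neuropeptides and their receptors followed, with 6 of 8 plus-strand genes lower in drones, 1 higher and 1 not called, and a median log2 fold change of -1.71. The SIFamide receptor gene SIFR had 302 and 305 CPM in drones, against 691 and 666 CPM in queens. Tk, which encodes tachykinins, had 82.0 and 75.4 CPM in drones and 208 and 195 CPM in queens, 2.55-fold lower in drones. The corazonin receptor gene Crzr had 2.05 and 2.49 CPM in drones and 29.7 and 35.0 CPM in queens, 14.7-fold lower in drones (FDR 9.52e-08). Pban, a precursor of pyrokinin-type peptides, and NPF, neuropeptide F, were 4.18-fold and 7.28-fold lower. The exception was Akhr, the receptor of adipokinetic hormone, which had 17.5 and 17 CPM in drones and 7.36 and 7.76 CPM in queens, 2.29-fold higher in drones.

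Synaptic and channel genes showed smaller differences in the same direction. All 4 plus-strand voltage-gated channel genes fell in drones (median log2 fold change -1.07), among them Cac, a presynaptic calcium channel, with 501 and 485 CPM in drones and 1071 and 987 CPM in queens. Amih, a hyperpolarisation-activated channel, was 2.22-fold lower, and the genes with the synonyms Cav1a (LOC100578899) and Cava2d3 (LOC551454) were 2.11-fold and 1.66-fold lower in drones. The active zone gene brp was 1.86-fold lower in drones. The adhesion genes NLG-4 and NLG-5, neuroligins, were 1.36-fold and 1.90-fold lower, which gives 3 of 3 plus-strand synapse genes. AChE-2, an acetylcholinesterase, had 966 and 950 CPM in drones and 3660 and 3488 CPM in queens, 3.73-fold lower in drones (FDR 5.36e-08).

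Nicotinic acetylcholine receptor subunits did not move together. Of 6 plus-strand subunit genes, 3 fell in drones, 2 rose and 1 was not called. The genes nAChRa6 and nAChRa7 had 36.9 and 34.9 CPM and 111 and 104 CPM in drones, against 133 and 130 CPM and 347 and 332 CPM in queens, which makes them 3.65-fold and 3.15-fold lower in drones. By contrast nAChRa4 was 1.65-fold and nAChRa3 1.35-fold higher in drones. On both TPM scales the log2 fold change of nAChRa3 was 0.02, against 0.43 here. With the most abundant transcript of each gene alone, 0 of the 6 subunit genes were called higher and 2 lower in drones. The remaining gene, nAChRa8, had 119 and 128 CPM in drones and 129 and 130 CPM in queens (log2 fold change -0.07 ± 0.07, SE, FDR 0.506). Among receptors for other transmitters, Nmdar1, a glutamate receptor subunit, was 1.43-fold lower in drones, and Hiscl1, a histamine-gated chloride channel of the visual pathway, was 1.22-fold higher, a direction that was opposite on both TPM scales, where the median of all genes was itself below 0.

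Second messenger enzymes and glial genes were also mixed. Ac3, an adenylyl cyclase that makes cyclic AMP, had 321 and 320 CPM in drones, against 967 and 914 CPM in queens, 2.94-fold lower in drones. Protein kinase C (Pkc) was 1.34-fold lower, while sGCbeta-3, a guanylyl cyclase subunit, was 1.79-fold higher. Of 5 plus-strand enzymes 2 rose and 2 fell, with a median log2 fold change of 0.01. GlnS, glutamine synthetase, the glial enzyme that recycles glutamate, had 2347 and 2487 CPM in drones and 3957 and 3949 CPM in queens, 1.64-fold lower in drones. The transporter gene Gat-a had 835 and 829 CPM in drones and 741 and 706 CPM in queens, and was not called (FDR 0.0603).

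**Figure D4:**
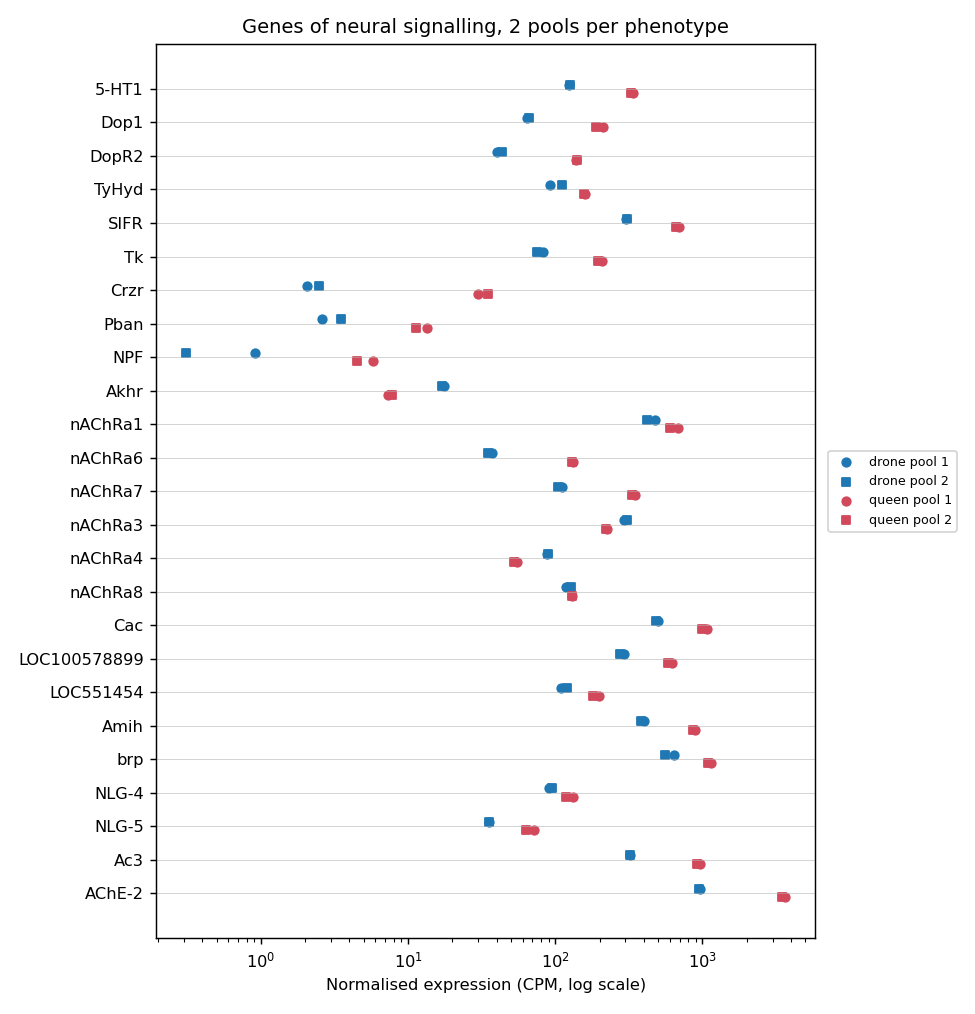
Normalised expression (CPM, horizontal log axis) of plus-strand genes of amine, peptide, acetylcholine, channel, synapse and cyclic AMP signalling, with drone pools in blue above queen pools in red, circles for pool 1 and squares for pool 2. Drone pools lie to the left for every gene drawn except Akhr, nAChRa3 and nAChRa4, and those of nAChRa8, which was not called, lie closest to the queen pools. The genes drawn are a choice, so their balance of directions is not a result. Of 5 plus-strand second messenger enzymes, of which 2 rose and 2 fell, Ac3 alone is drawn. Receptors for glutamate and histamine are not drawn.

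Some of the sex-determining genes differed between drones and queens. Dsx on chromosome 5 (3529523 to 3620990), a plus-strand gene, had 19.2 and 17.7 CPM in drones, against 76.6 and 76.6 CPM in queens, 4.12-fold lower in drones (log2 fold change -2.04 ± 0.10, SE, FDR 1.50e-07). A pair of its listed transcripts have the same start and end (3617256) and differ by an exon. The transcript with 7 exons (3359 nucleotides) had 10.6 and 0 estimated counts in drones, against 290 and 156 in queens. The transcript with 6 exons (2504 nucleotides) had 42.0 and 9.77 estimated counts in drones, against 0 and 0 in queens. By counting error alone, counts of 0 allow up to 0.0964% and 0.197% of the gene's counts in queens. This limit does not cover how the software divided reads between transcripts, which was not examined. By these estimates the shorter form of this pair dominated in both drone pools and the longer in both queen pools. Most counts, 623 and 160 in drones and 2801 and 1353 in queens, fell on a transcript of 6217 nucleotides with another end. tra2, a splicing cofactor of this pathway, had 168 and 175 CPM in drones and 186 and 183 CPM in queens and was not called (FDR 0.274). Csd and Fem are minus-strand genes read at most at 2.53 CPM, and both were called higher in drones, at 1.22 and 1.04 CPM and 2.53 and 1.14 CPM, against 0.197 and 0.202 CPM and 0.542 and 0.705 CPM in queens. These calls were lost in 4 alternatives for Csd and in 12 for Fem.

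Hormone genes were among the clear differences. LOC724216, with the synonym jhamt, encodes a methyltransferase that acts in juvenile hormone synthesis in the corpora allata, glands attached to the brain. It had 12.9 and 14.2 CPM in drones, against 146 and 128 CPM in queens, 10.2-fold lower in drones (log2 fold change -3.36 ± 0.11, SE, FDR 9.52e-09). Jhe, the esterase that degrades the hormone, had 90.9 and 91.8 CPM in drones and 57.1 and 57.2 CPM in queens, 1.60-fold higher in drones. The ecdysone receptor gene Ecr had 234 and 192 CPM in drones and 654 and 600 CPM in queens. Of 13 genes in this list, 10 lie on the minus strand, and of these Usp alone was called, at 1.73 and 0.832 CPM in drones and 2.81 and 5.14 CPM in queens, a call lost in 6 alternatives. *Mad*, which opens the network of the study, is also on the minus strand and had 18.6 and 5.09 CPM in drones and 6.92 and 14.6 CPM in queens, with overlapping pools. InR-2, an insulin receptor gene, was 1.26-fold lower in drones, and its call was lost in 9 alternatives.

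Among developmental transcription factors, 5 of 7 plus-strand genes fell in drones and 1 rose (median log2 fold change -0.85). Those that fell numbered 2 without queen pool 1, 2 without queen pool 2 and 0 with the most abundant transcript of each gene alone. Eyg, a Pax gene named for its eye phenotype in *Drosophila*, had 24.1 and 26 CPM in drones, against 3.35 and 4.28 CPM in queens, 6.60-fold higher in drones. The Hox genes Antp and Ubx were 3.69-fold and 2.26-fold lower, with Antp at 6.63 and 6.86 CPM in drones and 23.7 and 26 CPM in queens. Dll, an appendage gene also used in the brain, was 1.75-fold lower in drones. Of 3 noncoding RNAs known from the bee brain 2 were lower, with Ancr-1 at 7999 and 8682 CPM in drones and 10946 and 11251 CPM in queens, and Kakusei, induced by neural activity, 3.54-fold lower in drones, while Ks-1, on the minus strand, was not called.

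Housekeeping and defence groups moved in both directions. The 3 plus-strand ribosomal protein genes, RpL35, Rps14 and Rpl41, rose by 1.32-fold to 1.51-fold, but 0 of them were called on log2(TPM + 1) and 1 without queen pool 2. Of 5 plus-strand mitochondrial genes, ATP5G2 was 1.37-fold higher and PDHB 1.20-fold lower in drones. In the heat shock and oxidative stress list 3 of 10 plus-strand genes rose, namely Sod2 (1.80-fold), Cat (1.51-fold) and Gtpx1 (1.42-fold), which remove reactive oxygen, and GstS1 and Hsp90 fell. The calls of PDHB and Hsp90 were lost in 10 alternatives each. The immune list had PGRP-S3, a peptidoglycan recognition protein, 2.48-fold higher, and Def1, defensin, 3.66-fold and PPO, prophenoloxidase, 1.61-fold lower in drones, with 3 of 7 not called. The clock repressor Cry2 was 1.84-fold higher, the maintenance DNA methyltransferase Dnmt1a 1.84-fold higher, and the de novo methyltransferase Dnmt3 1.48-fold lower in drones. The call of Dnmt1a was lost in 3 alternatives.

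Proteins of other tissues were checked as well. Tsf1, the iron carrier transferrin, had 2441 and 2622 CPM in drones and 1550 and 1478 CPM in queens. The yolk protein precursor Vg, on the minus strand, had 0.597 and 0 CPM in drones and 27.3 and 71.8 CPM in queens. Other minus-strand genes of the fat body and haemolymph list went the other way. Hex70a had 8.25 and 3.85 CPM in drones and 2.31 and 1.81 CPM in queens. Hex70c had 7.22 and 7.07 CPM in drones and 2.95 and 2.37 CPM in queens. Of 6 genes of this list tested, 3 were called higher and 2 lower in drones. Of 12 royal jelly and yellow genes tested, all on the plus strand, 5 fell and 1 rose in drones. With libraries thinned to the smallest, 1 fell and 1 rose. With the most abundant transcript of each gene alone, 1 fell and 0 rose. Y-f was the only member above 20 CPM, with 920 and 982 CPM in drones and 1546 and 1511 CPM in queens. Mrjp8 was 1.87-fold higher and Y-h 3.61-fold lower in drones. Both plus-strand cytochrome P450 genes of the list rose, CYP6AQ1 by 2.11-fold and CYP6AS11 (LOC724946) by 8.60-fold. The germ line gene vas, the single plus-strand member of its list, had 15.8 and 17.7 CPM in drones and 19.3 and 19.2 CPM in queens and was not called.

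**Figure D5:**
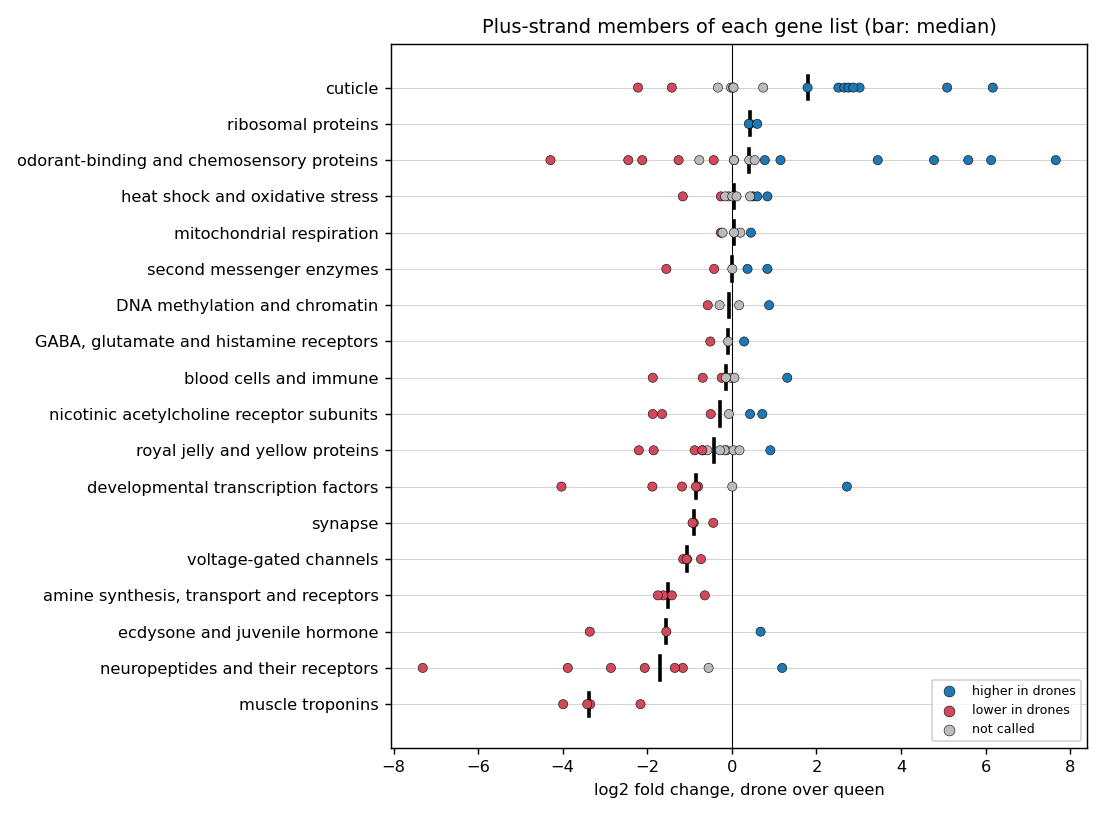
Log2 fold change of drone over queen (horizontal axis) for each plus-strand gene of the 18 lists with at least 3 such members tested, 1 point per gene and a bar at the median of the list. Medians run from -3.38 for troponins to 1.79 for cuticle genes, and groups of neural signalling lie mostly left of 0.

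Some genes were read in queens but hardly in drones, or the reverse. In 22 genes both queen pools had at least 10 counts and neither drone pool more than 3, and in 5 genes the reverse held. The filter kept such a gene only if a worker library also had at least 5 counts. Genes read in queens alone or in drones alone had been removed before, so 22 and 5 were not compared. Of the 22 genes 12 lie on the plus strand and 19 were called, while all 5 of the others lie on the plus strand and were called. The limit of 3 counts stands at 0.0853 and 0.312 CPM in drones, against 0.0739 and 0.151 CPM in queens, and it was highest in drone pool 2. Its part in these counts was not tested. LOC102653899 had 0 counts in both drone pools, against 109 and 113 CPM in queens, at least 348-fold lower in drones when set against 3 counts per library. LOC102655457 had 1765 and 509 counts in drones and 2 and 0 in queens. LOC102654158 had 91 and 16 counts in drones and 0 and 0 in queens, at least 11.0-fold higher in drones. The gene table gives no function for these genes.

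Further genes without a name separated the phenotypes at high levels. LOC552829 had 0.398 and 0.520 CPM in drones, against 219 and 228 CPM in queens, and LOC726625 had 4.98 and 5.61 CPM in drones and 982 and 895 CPM in queens, which makes them 519-fold and 182-fold lower in drones. LOC107964775, a lncRNA, had 19.4 and 24.1 CPM in drones and 0.123 and 0.101 CPM in queens. LOC550791 was 26.6-fold higher, at 4179 and 4417 CPM in drones and 162 and 161 CPM in queens. The most abundant genes lower in drones by over 2-fold were LOC551356, LOC726924, LOC408804, LOC408809, LOC725970 and AChE-2, of which LOC408804 changed most, with 593 and 604 CPM in drones and 3404 and 3187 CPM in queens.

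Some neighbouring genes moved together. Runs of 3 or more consecutive tested plus-strand genes that all changed over 2-fold in the same direction numbered 11 for genes higher in drones (38 genes) and 14 for genes lower in drones (44 genes). The steepest lay on chromosome 13 from 10547007 to 10583286 and held LOC112935903, LOC102653899, LOC413083 and LOC551845, all lower in drones. LOC112935903 had 1.14 and 1.25 CPM in drones and 303 and 278 CPM in queens, and LOC413083 had 0.142 and 0.312 CPM in drones and 466 and 444 CPM in queens. The tested plus-strand gene just before them, CYP6AS11 (LOC724946), was higher in drones, at 6.43 and 7.07 CPM against 0.911 and 0.604 CPM in queens. On chromosome 4 from 8805889 to 8859442, CPR27 and its neighbours LOC725547, LOC413113 and LOC100577562 were all higher in drones, with log2 fold changes from 2.53 to 6.17. The longest run had 5 genes around Cpap3-d on chromosome 3 (12197008 to 12225163), with log2 fold changes from 1.76 to 2.66. On chromosome 5, from 13140939 to 13154408, LOC551369, LOC551176 and LOC725404 were 7.21-fold, 13.2-fold and 15.6-fold lower in drones.

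Calls were spread over the 16 chromosomes. Among plus-strand genes the share called ranged from 39.4% on chromosome 1 to 52.9% on chromosome 13. Chromosome 13 also had the highest share of genes lower in drones (31.9%), against a lowest of 18% on chromosome 8, while the share higher ran from 15.8% on chromosome 2 to 23.3% on chromosome 3. Protein-coding and lncRNA genes of the plus strand were called in 44.2% and 31.7% of cases. With plus-strand genes divided into 4 equal groups by mean CPM, 28.3% of the lowest group and 64.3% of the highest were called. In the highest group 353 genes were higher and 534 lower in drones, while in the group next to the lowest 265 were higher and 214 lower.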

How the data were processed

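RNA was sequenced from pools of 5 central brains of newly-eclosed drones, queens and workers, with 2 libraries each. The authors quantified reads with Kallisto against EnsemblMetazoa transcripts and noncoding RNAs of Amel_HAv3.1, with a strand-specific setting; its version was not given in the sources used here. The deposited tables hold an estimated count per transcript, which is not normalized. They also hold TPM, which the authors' software scaled to transcript length and to a fixed total. A deposited table gives exon coordinates, from which 28232 of 28409 targets were paired with 12289 of 12398 RefSeq genes of the same assembly, and 820 of these have a name other than a locus number. The 177 other targets entered neither the library sizes nor any test. GEO lists the extracted molecule as genomic DNA, while the study's methods describe RNA.

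The transcripts of a gene were added up and the sums rounded to whole numbers. A gene needed 5 counts or more in 3 libraries or more, which removed 2600. edgeR 4.0.16 in R 4.3.3 was used for TMM scaling and the quasi-likelihood test of drone minus queen, fitted over all 6 libraries (3 residual degrees of freedom, common dispersion 0.0215), with Benjamini-Hochberg adjustment (FDR) over all genes at 0.05. CPM is on the TMM scale, and a standard error is the log2 fold change divided by the root of F. With 2 pools against 2, an exact permutation test of a gene cannot go below 0.333, so none was run.

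Named genes were the 6 with the largest change and the 6 with the highest CPM and over 2-fold change in each direction. Both sets had no overlap of pools. Up to 4 called members per list were also named, with sex determination and network genes. So were genes read in queens but hardly in drones, or the reverse. Other genes, among them those of neighbouring runs, Apd-3, Cpap3-b, Cpap3-c, nAChRa4, CSP1, Obp4, Pban, NPF, Ubx and GstS1, were chosen after their values were seen. The members of the 28 gene lists were chosen with earlier results of these data known and were completed from the symbols of the gene table.

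Alternatives used limma 3.58.1 on log2(TPM + 1) and log2(TPM + 0.1), DESeq2 1.42.0, other scalings, filters and units, and each library left out. A split by strand was added after seeing the data. Tables and figures used pandas 2.3.3 and matplotlib 3.10.9. No fold change is given where both phenotypes had 3 counts or fewer. Shares of a library's counts have 95% intervals of at most 0.0266 percentage points to either side, which cover counting error only.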

Additional observations from a re-analysis of the deposited data

Results flagged for a closer look

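Some of the signal lay outside the genes compared. Targets that were paired with no gene took 8.87% and 9.05% of the estimated counts in drone pools 1 and 2, against 9.41% and 10.4% in queen pools 1 and 2. These counts are above the limit that a count of 0 allows, and they were used in no comparison. Targets without coordinates held 3.22% and 3.96% of the counts in drones and 2.18% and 2.70% in queens.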

How the results depend on the processing

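The count of 2979 genes stayed within 1.5 times its value except without queen pool 1 (1979), with the most abundant transcript of each gene alone (1232) and in a fit of minus-strand genes only (332). It ranged from 1979 to 2953 with a library left out. Genes higher in drones ranged from 839 to 1494 over these omissions, numbered 656 on log2(TPM + 1), 627 on log2(TPM + 0.1), 594 with the most abundant transcript and 166 among minus-strand genes only. Genes lower in drones ranged from 936 to 1597, and numbered 3432 and 3313 on the TPM scales, 1082 with libraries thinned to the smallest, 638 with the most abundant transcript and 166 among minus-strand genes only. Fitted on their own, plus-strand genes gave 2868 calls, which held 2336 of the 2337 plus-strand calls. The calls among list members (121) fell to 66 with the most abundant transcript and to 14 among minus-strand genes only, and ranged from 94 to 118 with a library left out. The causes were not tested.

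Of 106 named genes that were called, 61 kept direction and call in every alternative that tested them. Directions turned for Hiscl1 (-0.10 on both TPM scales), Ip3k (-0.06 on both) and sGCbeta-3 (-0.68 with the most abundant transcript). Among genes not called they turned for Gat-a (-0.21 on both TPM scales, where it was called lower), for Mad (-0.22 and -0.37 on the TPM scales, -0.41 thinned, -0.16 with the most abundant transcript, -0.17 without queen pool 1 and -1.06 without drone pool 1, within -1.06 to 0.82 over all omissions) and for Uvop (-0.31 and -0.66 on the TPM scales and -1.42 without drone pool 1, within -1.42 to 0.70 over all omissions).

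Replicate numbers are shared by the phenotypes in the labels, which do not say that a number marks a batch. With the replicate number as a block there were 2463 calls, of which 2462 were among the 2979, and Uvop turned to -0.05. The deviations of pools with the same number correlated at -0.35 between drones and queens over all genes, at 0.15 over plus-strand genes and at -0.39 over minus-strand genes, so the numbers were not taken as pairs.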
